A study of Enchytraeus crypticus with 54 samples.

Results

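Adult *Enchytraeus crypticus*, a soil-dwelling oligochaete worm, had been kept for 3 days in soil spiked with copper nanoparticles (Cu-NPs) at the EC50, the concentration expected to lower reproduction by 50%. The gene expression of these worms was compared with that of worms kept for 3 days in the unspiked control soil. The comparison rested on 6 of the 54 arrays of the series, 3 labelled Cu-NPs EC50 3 days and 3 labelled Control 3 days, which were found by their titles. All worms were adults with a well developed clitellum, the band of tissue that forms the cocoon, and all were kept without food in soil from the Hygum site in Denmark. Each replicate was a vessel of 20 worms whose whole bodies were pooled for RNA, so a lower level of a transcript in each cell and fewer cells holding it cannot be told apart. Other groups of 3 arrays compared below at 3 days are Cu-NPs EC20, CuNO3 EC50 (copper nitrate, the dissolved salt) and Cu-NWires EC50 (copper nanowires). At 7 days, Control and Cu-NPs EC50 were compared. Levels are also given from the rest of the 18 groups, which hold these forms at the other level or day. They also hold Cu-Field EC20 and EC50, soil of the site with aged copper contamination, at 3 and 7 days. EC20 stands for the concentration that lowers reproduction by 20%. Forms at the EC50 were thus matched on their effect on reproduction and not on the amount of copper.

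Copper is an essential metal, held by enzymes of respiration and antioxidant defence, and in excess it binds to proteins and drives the formation of reactive oxygen species. Animals meet it with copper transporters, metal-binding metallothioneins, chaperones and antioxidant enzymes. Copper nanoparticles can release copper ions in soil and can also be taken up as particles. In clitellate worms much of the adult body serves reproduction and the making of cocoons, and reproduction is the endpoint on which the concentrations here were set. Whether genes of these kinds are among the probes described below could not be read, because the scanner files name a probe only by its number and by the assembled contig or single sequencing read from which it was designed, with no gene name and no sequence. For this reason no more than 2 probes that rose and 2 that fell are named by number.

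Of 43750 gene probes, 19499 had a positive and significant signal on all 54 arrays and were tested. 9143 of them were designed on contigs and 10356 on single reads. Levels are log2 processed signals after Median normalization, in which each array was shifted to a common median, so a difference of 1 is a 2-fold change. Depending on the array, 40.3 to 60.4% of all gene probes were well above background on the 6 arrays, against 38.2 to 66.5% over the 54 arrays. The control arrays correlated with each other at 0.97 to 0.98 over the 19499 probes. Cu-NPs EC50 replicates 2 and 3, which shared a slide, correlated at 0.98, and replicate 1, on another slide, correlated with them at 0.96 and 0.94. The median SD within the group was 0.40 in the Cu-NPs EC50 arrays and 0.31 in the control arrays.

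After 3 days at the EC50 of Cu-NPs, 3530 probes differed from the control (limma, adjusted p under 0.05), which is 18.1% of those tested. Of these differentially expressed genes (DEGs), 2184 (11.2%) were higher and 1346 (6.9%) were lower. At the same day the EC20 of Cu-NPs gave 0 calls (0%) in the same fit, with 862 probes at an unadjusted p under 0.05. The 3 treated arrays all lay above the 3 control arrays for 4011 probes (20.6%) and all below them for 2824 (14.5%). Among the DEGs this held for 2023 of the 2184 higher and 1213 of the 1346 lower probes.

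Of the DEGs, 61.9% were higher under Median normalization. This share was 47.9% when each array was scaled to its 75th percentile, 87.7% when it was scaled to the spike-in probes and 84.1% without scaling. The median change over all probes was 0.05 in the first case, −0.05 with the 75th percentile, 0.62 with the spike-ins and 0.35 without scaling. Each of these scalings shifts all probes of an array by the same amount. Among them, the share was greater where the median change was greater. It also moved under Median normalization, where that change stayed at 0.05. There it was 50.1% with only the 6 arrays fitted and 40.9% with these blocked by replicate number. By the methods' t-test after Benjamini-Hochberg adjustment it was 38.0%. What moved the share was not tested. Relative to the median of all probes, the higher DEGs had a median change of 1.01 and the lower DEGs of −1.40. The spike-in mean (log2) was 13.9 on each of the control arrays and 13.2, 14.1 and 13.5 on the treated arrays, and its part in the share was not tested.

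**Figure D1:**
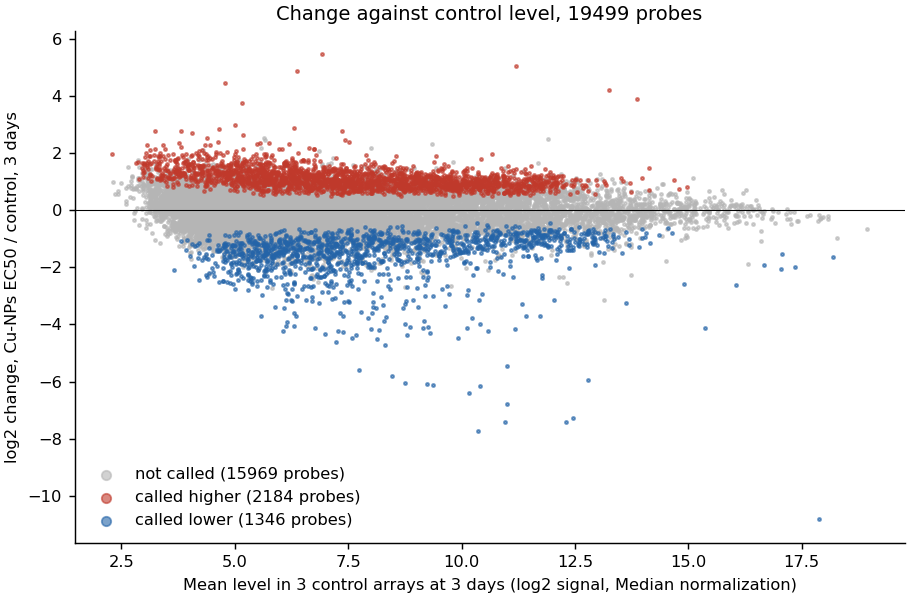
Each of the 19499 probes is plotted by its mean level in the 3 control arrays at 3 days (x axis, log2 signal) and its log2 change with Cu-NPs EC50 (y axis). Red probes were called higher (2184), blue probes lower (1346) and grey probes were not called (15969), and the blue cloud reaches down to −10.82 while the red one ends at 5.45.

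The 2 directions differed in shape. Higher probes rose by a median of 1.06 (quartiles 0.88 and 1.30), a 2.09-fold change, and 46 of the 2184 rose by 4-fold or more. Lower probes fell by a median of 1.34 (quartiles 1.05 and 1.81), a 2.54-fold change, and 267 of the 1346 had a fitted fall of 4-fold or more. Past 8-fold there were 7 higher and 86 lower probes, and past 16-fold 5 and 39. On 48 of the lower probes no treated array was well above background, so that their fall has only a lower bound. With these at their bound, 250 lower probes still had a fall of 4-fold or more and 33 of 16-fold or more. The median of the lower probes was then −1.33. Probes that were dim on only part of the treated arrays kept their measured values, so their falls are not bounds. Of the 1346 lower probes 1063 were well above background on each treated array, and of the 267 it was 142.

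Changes were found at all levels of expression. To rank the probes without the arrays compared, they were sorted by their mean in the control worms of day 7 and divided into 5 groups of about 3900. Higher calls made up 3.36% of the faintest probes, 6.82, 12.2 and 17.1% of the next 3 groups and 16.5% of the brightest. Lower calls rose less steeply, from 3.41% of the faintest to 8.87% of the brightest. Falls of 4-fold or more were found most often in the middle group (80 probes) and least often in the brightest (29 probes). Contigs and single reads had similar shares of higher calls (11.6 and 10.8%), and single reads had more lower calls (7.95%, against 5.72% for contigs). Of the 39 probes with a fitted fall of 16-fold or more, 28 were designed on single reads.

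Among the 100 probes that were brightest in the control worms of day 7, 7 were lower with Cu-NPs EC50 at 3 days, 1 was higher and 92 were not called, against 6.9% lower and 11.2% higher over all probes. Their changes ran from −10.82 to 0.93 with a median of 0.03. These 100 probes carried 28.1, 29.2 and 31.8% of the summed signal on the control arrays, and 24.0, 26.3 and 28.7% on the treated arrays. A fall of 4-fold or more was found for 3 of the 100 probes.

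The probe with the greatest fall, CUST_60351_PI427420766_b, designed on the read GYUW2K401EIO4R, was the 10th brightest of the 19499 in the control worms. Its level was 18.24, 17.42 and 17.97 on the control arrays and 5.83, 7.91 and 7.42 on the Cu-NPs EC50 arrays. All 3 treated arrays were far below every control array, and the probe ranked 8307 there, although it was still well above background. The fall was −10.82 ± 1.48 (SE, n = 3 against 3; limma, adjusted p = 2.88e-05), or about 1813-fold. This probe alone gave 0.730% of the summed signal in the control worms and 0.000458% in the exposed worms.

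The next greatest fitted fall was that of CUST_25114_PI427420766_b, designed on the read GYUW2K401A9C8N. It measured 11.06, 10.46 and 9.59 on the control arrays and 1.98, 3.37 and 2.54 on the treated arrays, where it was not well above background. The groups did not overlap, and the signal fell by at least 134-fold. The fit gave −7.74 ± 1.16 (SE, n = 3 against 3; limma, adjusted p = 8.91e-05). The bound compares the mean of the control arrays with the faintest signal that was well above background on each treated array, and since the fall is a bound, its rank among the falls is not settled.

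The 2 probes that rose most differed in the spread between their treated pools. CUST_5168_PI427420766_b, designed on contig24256, measured 11.33, 10.64 and 11.61 on the control arrays and 15.50, 16.13 and 17.11 on the treated arrays. It rose by 5.05 ± 1.20 (SE, n = 3 against 3; limma, adjusted p = 0.00421), or 33.2-fold, and went from rank 1904 in the control worms to rank 60. No slide held arrays of both groups, and with slide as a fixed term the change was 2.64 (limma, adjusted p = 0.329). CUST_59613_PI427420766_b, designed on the read GYUW2K402HZ4GY, measured 6.90, 6.83 and 7.03 on the control arrays and 16.59, 11.01 and 9.51 on the treated arrays. It rose by 5.45 ± 1.32 (SE, n = 3 against 3; limma, adjusted p = 0.00481), with an SD of 3.73 between the treated pools against 0.10 between the control pools. Replicate 1 carried much of this rise, and without it the change was 3.34 with an adjusted p of 0.0547 in the same limma fit.

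**Figure D2:**
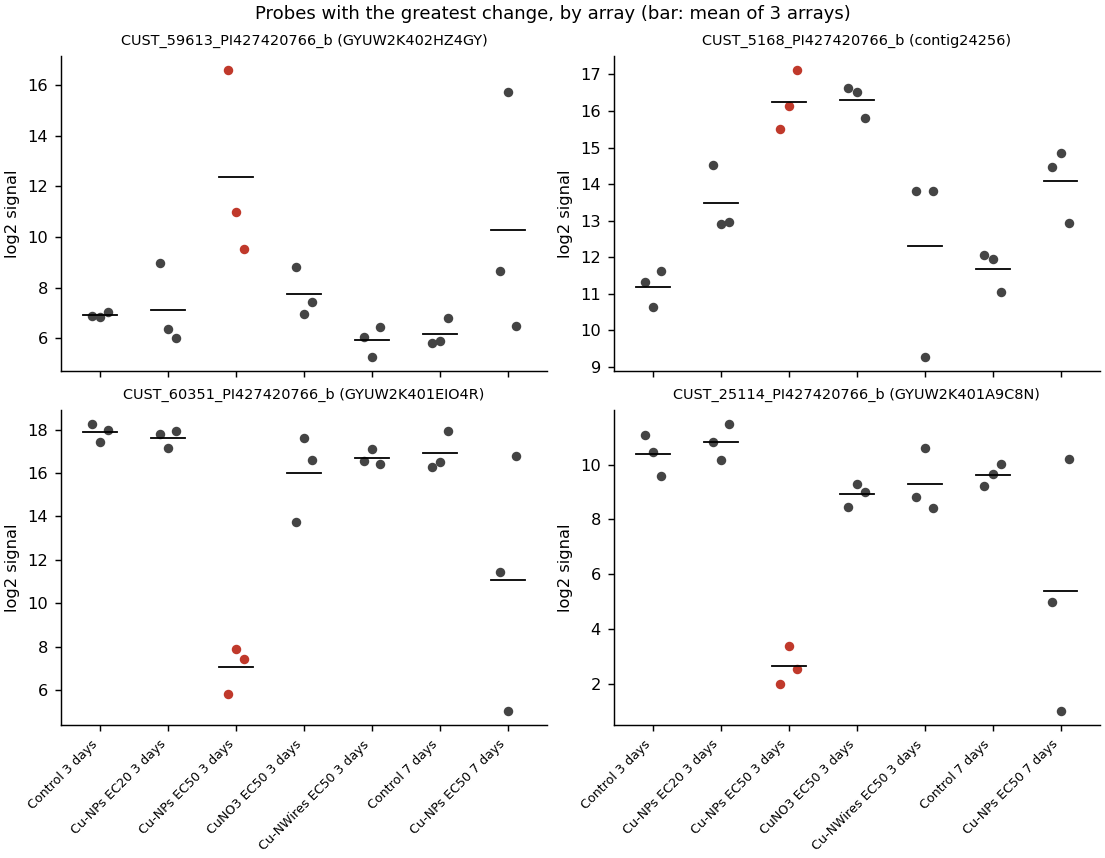
The log2 signal (y axis) of the 2 probes that rose most and the 2 that fell most is shown for every array of 7 groups (x axis), with the Cu-NPs EC50 arrays of 3 days in red and a bar at each mean of 3 arrays. CUST_60351_PI427420766_b and CUST_25114_PI427420766_b were low on all 3 red arrays and on 2 of the 3 Cu-NPs EC50 arrays of 7 days, whereas CUST_5168_PI427420766_b was also high with CuNO3 EC50 (15.80 to 16.62).

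The 39 probes with a fitted fall of 16-fold or more were chosen for that fall, and their levels are given as a description. Their median level was 9.40, 8.94 and 8.60 on the 3 control arrays and 3.48, 3.54 and 4.29 on the 3 treated arrays. All 39 were well above background on each control array, and 15 were so on each treated array. Together they gave 1.04, 0.959 and 0.983% of the summed signal of the control arrays and 0.00809, 0.0125 and 0.0157% of that of the treated arrays. No treated pool stood between the groups: they were low in each of the 3 vessels, also in replicate 1, in which the DEGs as a whole had changed least.

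These 39 probes also went together in the arrays outside the comparison. Those arrays set none of the size of the fall. They did have a part in the choice, through the signal filter and the spread used in the fit. Over the 48 arrays of the other 16 groups, the correlation between 2 of the 39 probes had a median of 0.86 (quartiles 0.80 and 0.91, 741 pairs), as a description over arrays that share groups and slides. For the 46 probes that rose by 4-fold or more the median was 0.34 (quartiles 0.09 and 0.60, 1035 pairs). A like value for pairs of all probes is not given here. The SD within groups of the 39 probes had a median of 1.18, against 0.46 over all probes. They were thus also among the more variable transcripts between pools that had the same treatment. The 48 arrays include Cu-NPs EC50 arrays of 7 days with medians of 5.27 and 3.24 and a Cu-Field EC50 array at 4.22. The part of these low arrays in the correlation and in the SD was not tested.

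With Cu-NPs EC20 at 3 days the medians of the 39 probes on the 3 arrays were 9.12, 8.93 and 10.38, which overlapped with those of the control arrays. With Cu-NPs EC50 at 7 days they were 5.27, 3.24 and 8.06, against 8.63, 8.04 and 8.67 on the control arrays of that day. One pool of 7 days was thus as low as the pools of 3 days, one was intermediate and one lay close to the control. CUST_60351_PI427420766_b showed the same order, with 11.46, 5.05 and 16.76 in the 3 pools of 7 days. Among the other groups, Cu-Field EC50 (soil of the site with aged copper contamination) at 7 days had one low array, with medians of 4.22, 7.52 and 7.81. The group medians elsewhere ran from 6.98 in Cu-NWires EC50 at 7 days to 9.20 in Cu-NPs EC20 at 3 days. Smaller falls of the 39 against the control of the same day were found in other groups. At 3 days the median was −1.36 in Cu-NWires EC50, −1.20 in Cu-NWires EC20 and −1.24 in CuNO3 EC50. It was −0.41 and −0.40 in Cu-Field EC20 and EC50 and −0.38 in CuNO3 EC20 at 3 days. At 7 days it was −1.91 in Cu-Field EC50, and −1.13 and −1.23 in Cu-NWires EC50 and EC20. In Cu-Field EC20 at 7 days it was −1.23, and 1 array was at 5.73. It was 0.25 and 0.15 in Cu-NPs EC20 at 3 and 7 days, and 0.41 and 0.19 in CuNO3 EC20 and EC50 at 7 days.

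**Figure D3:**
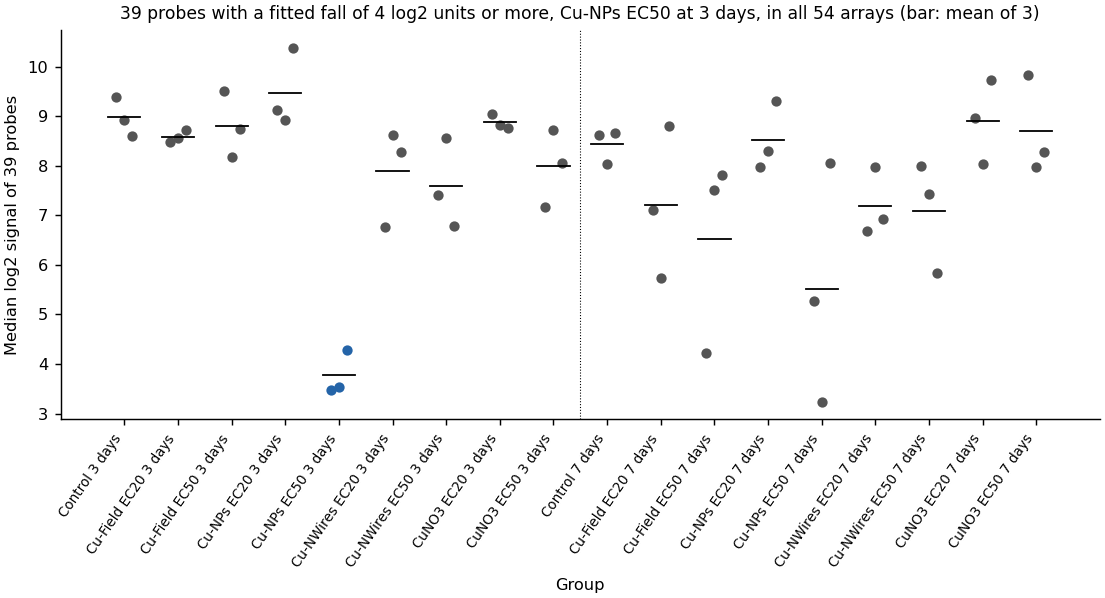
The median log2 signal of the 39 probes with a fitted fall of 16-fold or more (y axis) is plotted for each of the 54 arrays by group (x axis, 3 days on the left and 7 days on the right of the dotted line), with a bar at the mean of 3 arrays. The 3 Cu-NPs EC50 arrays of 3 days (blue, 3.48 to 4.29) lay below every other array of 3 days, and 1 Cu-NPs EC50 array of 7 days was lower still (3.24).

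The comparison at 7 days shares no array with that at 3 days. There 8 probes were called (0.041%), 7 higher and 1 lower, and 1793 had an unadjusted p under 0.05. Of the 1346 probes that were lower at 3 days, 1185 (88.0%) were again lower at 7 days, with a median change of −0.49 against −1.34 at 3 days. Over all tested probes 53.9% were lower at 7 days, and the median change was −0.04. Of the 2184 probes that were higher at 3 days, 1297 (59.4%) were again higher, against 46.1% of all probes, and their median change was 0.08 against 1.06. All 39 of the probes with the greatest falls were lower at 7 days, with a median of −2.68. Of the 46 probes raised by 4-fold or more, 44 were higher, with a median of 0.79. Across the 3530 DEGs the changes at the 2 days correlated at 0.71 (Pearson) and 0.59 (Spearman), and across all 19499 probes at 0.41 and 0.32. These are correlations across genes, which are not independent replicates, and the arrays of the 2 days share slides.

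**Figure D4:**
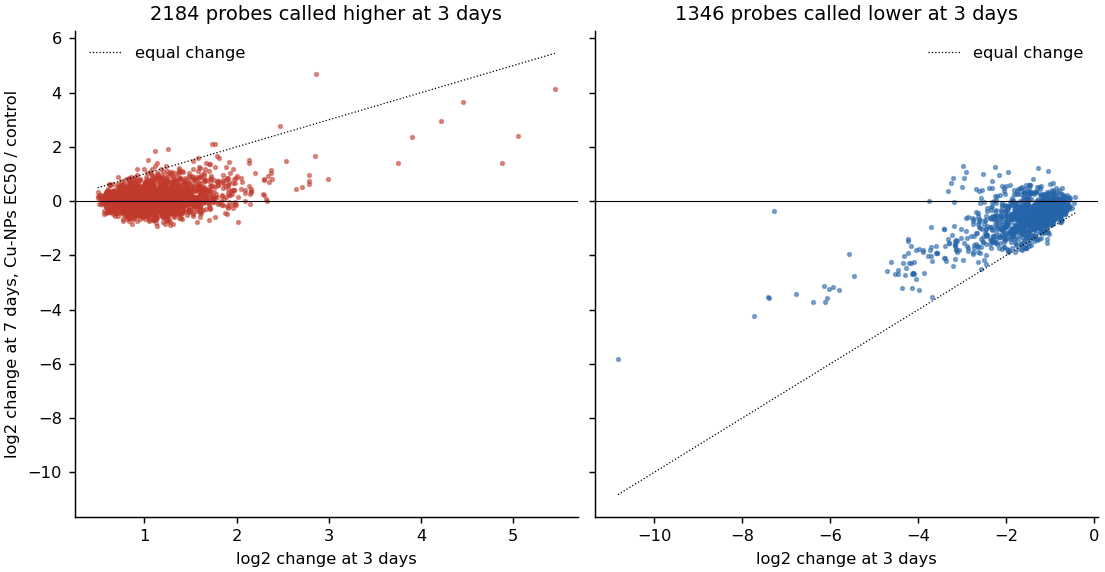
The log2 change with Cu-NPs EC50 at 7 days (y axis) is plotted against that at 3 days (x axis) for the 2184 probes higher (red) and the 1346 probes lower (blue) at 3 days, with a dotted line at equal change. The red cloud is centred near 0 at 7 days (median 0.08), whereas most blue probes (1185) stayed below 0.

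The difference between the 2 days was tested as an interaction. It was called for 3 probes (0.0154%), and 2872 had an unadjusted p under 0.05 (limma). Of the 3, 1 had a weaker fall at 7 days and 2 had a fitted change of the other sign. For 1 of these 2 the change at 7 days was −0.36 ± 0.25 (SE). The other was not called at 3 days (limma, adjusted p = 0.107). Under Quantile normalization 3 of 5 calls were higher at 7 days relative to 3 days, and under SVCD normalization both of 2, against 1 of 3. Without Cu-NPs EC50 replicate 1 of 3 days the count was 552, of which 482 were lower and 70 higher at 7 days relative to 3 days, and in the fits without Cu-NPs EC50 replicate 2 or 3, or control replicate 1, it was 1. With the slide as a block, 0 probes were called in limma (1430 at an unadjusted p under 0.05). With the replicate number as a block, 0 were also called in limma (2469 at an unadjusted p under 0.05). None of the 3 calls thus remained in either fit. The replicate fit held the groups compared only, so the part of the block and that of the arrays left out cannot be told apart. The probe with the weaker fall was designed on a contig and fell by 7.28 ± 0.60 (SE) at 3 days, from 12.69, 12.82 and 11.85 on the control arrays to 4.39, 5.03 and 6.11 on the treated arrays. At 7 days it measured 12.22, 14.00 and 12.19 on the control arrays and 12.92, 11.84 and 12.52 on the treated arrays, which overlap. Its fall at 3 days was 155-fold, and on the 48 arrays of all other groups it was never under 10.21. The 7-day change was −0.37 ± 0.60 (SE) and the interaction 6.91 ± 0.85 (SE, limma, adjusted p = 9.01e-06). Its low level was found in the Cu-NPs EC50 worms of 3 days alone among the 18 groups. CUST_60351_PI427420766_b, in contrast, was also low in Cu-NPs EC50 pools of 7 days (11.46 and 5.05), though not in replicate 3 (16.76). In replicate 1 of Cu-Field EC50 at 7 days it was low as well (8.21), as was CUST_25114_PI427420766_b (4.20).

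Against the same nanoparticles at the EC20, 779 probes differed at 3 days (4% of those tested), 448 higher and 331 lower at the EC50. This comparison shares the 3 Cu-NPs EC50 arrays with the one against the control. CUST_60351_PI427420766_b measured 17.81, 17.16 and 17.93 at the EC20, and the step to the EC50 was −10.58 ± 1.48 (SE, limma, adjusted p = 3.04e-05). CUST_25114_PI427420766_b was at least 182-fold lower at the EC50 (limma, adjusted p = 3.14e-05), and 38 of the 39 probes with the greatest falls were called. CUST_59613_PI427420766_b was 5.25 ± 1.32 (SE) higher at the EC50 (limma, adjusted p = 0.0185). CUST_5168_PI427420766_b measured 14.54, 12.92 and 12.98 at the EC20, between the levels of the control and of the EC50, and the step of 2.77 ± 1.20 (SE) did not pass the test (limma, adjusted p = 0.175, 95% confidence interval 0.34 to 5.20). Of the 46 probes raised by 4-fold or more, 27 were called in this step. The count was 1835 without Cu-NPs EC50 replicate 1, 182 (55 higher and 127 lower) without replicate 2 and 204 (84 and 120) without replicate 3. The balance also turned with the slide as a fixed term (11 higher and 29 lower). With the replicate number as a block, in a fit of the groups compared only, it was 13 and 148.

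Against CuNO3 at its EC50, 18 probes were called (0.0923%), 2 higher (11.1%) and 16 lower with Cu-NPs, and 1850 had an unadjusted p under 0.05. The Cu-NPs EC50 arrays on which the 39 probes were chosen are also those of this contrast. Of the 39, 13 were among the calls, and their median difference was −3.38, against 0.01 over all probes, as a description. CUST_60351_PI427420766_b measured 13.73, 17.60 and 16.62 with CuNO3 and differed by −8.93 ± 1.48 (SE, limma, adjusted p = 0.00219). CUST_25114_PI427420766_b was at least 48.7-fold lower with Cu-NPs (limma, adjusted p = 0.00905). CUST_5168_PI427420766_b was also high with the salt, at 16.62, 16.52 and 15.80, with a difference of −0.07 ± 1.20 (SE, limma, adjusted p = 0.99) and a 95% confidence interval from −2.49 to 2.36. CUST_59613_PI427420766_b was 4.63 ± 1.32 (SE) higher with Cu-NPs, which did not pass the test (limma, adjusted p = 0.251, 95% confidence interval 1.96 to 7.30). Under SVCD normalization 4 of 16 calls were higher (25%). The count rested on single pools: it was 35 without Cu-NPs EC50 replicate 1 and 6 without replicate 2.

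Against Cu-NWires at their EC50, 270 probes were called (1.38%), 126 higher and 144 lower with Cu-NPs. The Cu-NPs EC50 arrays are again those on which the 39 and the 46 probes were chosen. Of the 39 probes 22 were called, with a median difference of −3.31, and of the 46 raised probes 11. CUST_60351_PI427420766_b measured 16.57, 17.11 and 16.40 with Cu-NWires, a difference of −9.64 ± 1.48 (SE, limma, adjusted p = 0.000266). CUST_25114_PI427420766_b was at least 62.5-fold lower with Cu-NPs (limma, adjusted p = 0.00123). CUST_59613_PI427420766_b differed by 6.45 ± 1.32 (SE, limma, adjusted p = 0.00844). CUST_5168_PI427420766_b was spread from 9.28 to 13.82 with Cu-NWires, and its difference of 3.95 ± 1.20 (SE) did not pass the test (limma, adjusted p = 0.0735, 95% confidence interval 1.52 to 6.37). This comparison depended on the normalization: under Quantile normalization 98 of 313 calls were higher (31.3%), and under SVCD normalization 37 of 6493 (0.570%), with a median difference over all probes of −0.62 against 0.15 under Median normalization. The count was 136, 121 and 155 without Cu-NPs EC50 replicate 1, 2 and 3.

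No slide held arrays of both groups of the main comparison. With slide as a random block the count was 3092 (1895 higher and 1197 lower). With slide as a fixed term, estimated through the other groups on these slides, it was 159 (56 higher and 103 lower, 35.2% higher), and 25 of the 39 probes and 9 of the 46 were called. In that fit the median change was 0.84 over the higher probes, −1.21 over the lower probes and −4.72 over the 39, against 1.06, −1.34 and −4.47 without the term. The slide of replicates 2 and 3 also held a Cu-NWires EC50 array of each day. Against the other 2 arrays of its group, the array of 3 days had median differences of 0.38 over the higher and −0.26 over the lower probes, and that of 7 days of 0.30 and −0.05. Over the 39 probes these differences were −0.28 and 0.51, and over all probes 0.08 and 0.18. On the slide of replicate 1, arrays of other groups were set against their groups over the higher, the lower, the 39 and all probes. The CuNO3 EC50 array of 3 days differed by 0.14, −0.16, −0.997 and −0.04. For the Cu-NWires EC20 array of 3 days these values were −0.43, −0.21, −1.35 and −0.24. For the CuNO3 EC20 array of 7 days they were 0.13, −0.06, −0.06 and 0.15.

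Both scan days held both groups. On the first, replicate 1 against 2 control arrays gave medians of 0.79 over the higher and −1.18 over the lower probes. On the second, replicates 2 and 3 against 1 control array gave 1.08 and −1.34. The DEGs were called on these same 6 arrays, so that a like direction on both days is largely fixed by the choice: 2177 of 2184 were higher on both and 1329 of 1346 lower on both, against 36.1 and 28.7% of all probes. CUST_5168_PI427420766_b was 4.51 higher on the first day and 5.01 higher on the second.

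The count of DEGs depended on single pools. Without Cu-NPs EC50 replicate 2 or 3 it fell to 1371 or 1369, and without control replicate 1 or 2 to 1883 or 1880. It was 4679 without Cu-NPs EC50 replicate 1, whose change over the higher probes had a median of 0.72, against 1.24 and 1.23 in replicates 2 and 3. With replicate 1 as the only treated array, whose spread was then taken from the other groups, 203 probes were called, among them 29 of the 39. In each fit that left out 1 array, all 39 were called lower and 42 to 44 of the 46 raised probes higher, on arrays that had chosen them. By the methods' t-test with Benjamini-Hochberg adjustment 15 of the 39 and 3 of the 46 were called. With normexp background correction 36 of the 39 and 33 of the 46 were called, and their medians were −2.55 and 1.24, against −4.47 and 2.32.

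**Figure D5:**
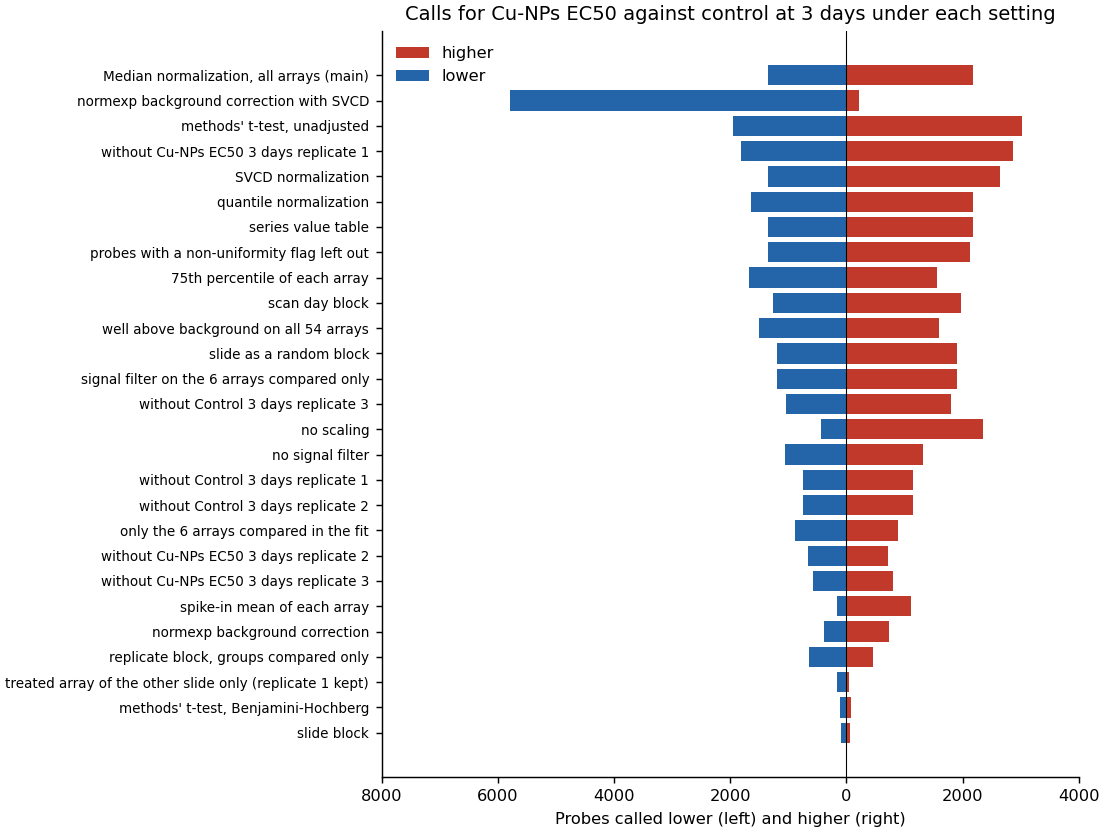
Bars give the number of probes called lower (blue, to the left) and higher (red, to the right) for Cu-NPs EC50 against control at 3 days in the main fit (top bar, 1346 and 2184) and under each of the 26 other settings (y axis), sorted by their total. Totals ran from 159 with slide as a fixed term to 6000 with normexp background correction and SVCD normalization, where nearly all calls were lower. SVCD normalization alone gave 2651 higher and 1349 lower calls.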

How the data were processed

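Custom Agilent one-colour arrays (Cy3) were read from the scanner files. The processed signal deposited by the authors is an intensity on a linear scale, from which Agilent Feature Extraction 10.7.3.1 had subtracted the background. The arrays were not yet scaled to each other. The series table, also deposited by the authors, holds rounded copies of these intensities. The deposited detection flags, a score of 0 or 1, gave the filter. The files hold 0 columns of samples from outside the series, and the authors' fold changes or p-values were not used.

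Signals were transformed to log2, shifted to a common array median and fitted with limma 3.58.1 in R 4.3.3, with 1 mean for each of 18 groups over 54 arrays and Benjamini-Hochberg adjustment at 0.05. The number of arrays limits the precision, and p-values measure the spread between pools. The named probes are the 2 highest and 2 lowest called changes whose arrays did not overlap. Lists of gene names and cell markers could not be applied without gene names. The comparison and the lists were chosen with earlier results of these data known. For normexp (offset 50) the median signals were used. Scripts were tested on simulated data with known changes.

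Replicate numbers are shared between groups, but same-numbered arrays did not deviate together (correlations −0.03, −0.05 and 0.18), so no pairing was used. Alternatives were other scalings (75th percentile, Quantile, SVCD, spike-in, none), background corrections, filters, blocks, the methods' t-test and leaving out arrays.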

Additional observations from a re-analysis of the deposited data

Results flagged for a closer look

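The effect of Cu-NPs EC50 differed between 3 and 7 days for 3 probes in the interaction fit (limma). With slide as a block it was called for 0 (1430 probes at an unadjusted p under 0.05, limma). With replicate number as a block, in a fit of the groups compared only, it was also called for 0 (2469 probes at an unadjusted p under 0.05, limma). The first of the 3 is the contig probe described above, with an interaction of 6.91 on the log2 scale. The second, also from a contig, rose by 1.49 at 3 days and stood at −0.36 at 7 days, an interaction of −1.85 (limma, adjusted p = 0.0499). The third stood at 0.83 at 3 days and at −1.84 at 7 days, an interaction of −2.67 (limma, adjusted p = 0.0499). It was well above background on 2 of the 3 treated arrays of 3 days, on no control array of 3 days and on no treated array of 7 days.

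The effect against the control at 3 days also differed between Cu-NPs EC50 and Cu-NPs EC20 for 779 probes, between Cu-NPs EC50 and CuNO3 EC50 for 18, and between Cu-NPs EC50 and Cu-NWires EC50 for 270, each by a direct test of the difference.

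The 24251 probes that had not passed the filter on all 54 arrays were also read by their detection flags. The 2 sets below were picked by these flags on the arrays compared. The direction of their change is thus fixed by the choice, and their values are a description. Of the 24251 probes, 80 were well above background on all 3 control arrays and on no Cu-NPs EC50 array of 3 days. Their loss was at least 4.08-fold in the median, at least 4-fold for 41 of them and at least 1322-fold for the most changed. In the other direction, 269 probes were well above background on all 3 treated arrays and on no control array. Their gain was at least 1.28-fold in the median and at least 4-fold for 1. The share of all probes well above background was 43.8, 58.7 and 40.3% on the control arrays and 60.4, 54.5 and 47.2% on the treated arrays, and its part in these counts was not tested.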

How the results depend on the processing

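Of 26 other settings for Cu-NPs EC50 against control, 14 gave a count within 1.5 times 3530. The 14 include the methods' t-test without adjustment, which is an unlike threshold. They also include the series table, a rounded copy of the same signals (3532 calls). SVCD normalization alone was among the 14 too, with 4000 calls, 2651 higher and 1349 lower (66.3% higher). The count was 1268 with spike-in scaling, 1111 with normexp, 1767 with only the 6 arrays fitted, 159 with the slide block, 192 by the methods' t-test after Benjamini-Hochberg adjustment (4977 unadjusted), 203 with replicate 1 as the only treated array, and 6000, of which 3.47% were higher, with normexp and SVCD together. Leaving out 1 array gave 1369 to 4679. The last 2 settings and slide as a random block were chosen after seeing the data.

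The EC50 to EC20 step gave 117 calls with normexp, 40 with the slide block, 53 with replicate 1 alone and 182 to 1835 without 1 array, against 779. The contrast with CuNO3 gave 4 with normexp, 7 among probes well above background on all arrays, 6 with the slide block and 6 to 35 without 1 array, against 18; under SVCD 25% were higher. The contrast with Cu-NWires gave 6493 with SVCD, 57 with normexp, 169 among probes well above background, 19 with the slide block, 172 with the random block and 121 to 155 without 1 array, against 270. The interaction gave 5 with Quantile, 6 with the random block and 1 to 552 without 1 array, against 3; with the slide block it gave 0 (1430 at an unadjusted p under 0.05, limma).

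With the replicate number as a block, in fits of the groups compared only, the counts were 1096 against control, 161 against EC20, 182 against CuNO3, 203 against Cu-NWires and 0 for the interaction (2469 at an unadjusted p under 0.05, limma). Of the 3 treated arrays, 1 correlated best with the control array of its own number. The cause of these changes was not tested.

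All 4 named probes kept their direction in every setting run, which is largely fixed by their choice on the same 6 arrays. CUST_60351_PI427420766_b ran from −12.05 to −10.08 and CUST_25114_PI427420766_b from −8.39 to −3.91, and both passed the test throughout, the latter in the 25 settings that kept it. CUST_5168_PI427420766_b (2.64 to 5.62) missed the threshold in 3 of 26 settings and CUST_59613_PI427420766_b (3.34 to 9.67) in 4 of 26.

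Faint probes limit these data: 12827 of the 19499 probes were well above background on all arrays, the bounds above stand for falls below that level, and 3 pools a group leave counts open to 1 pool.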
